A study of Drosophila melanogaster with 6 samples.

Results

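Muscle structural genes encode the proteins of the sarcomere, the repeating contractile unit of striated muscle. The set described here holds 10 of them, taken by name from the 17753 genes of the deposited expression tables: Mhc, bt, sls, Act57B, Mlc1, Mlc2, up, wupA, Tm2 and Prm. All 10 were matched by their FlyBase identifiers and all 10 passed the filter on low counts, which 9901 genes passed. Eye disc was compared with antennal disc, both from larvae of Drosophila melanogaster in the third instar, with 3 libraries of polyadenylated RNA per tissue. Both tissues came from larvae of genotype yw;+;+, and each library pooled 30 discs that had been freed from the mouth hooks and cut by hand into eye and antennal portions. The estimated counts summed to between 17583649 and 29093995 per library.

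In a sarcomere, myosin motors on thick filaments pull on actin of thin filaments. Calcium releases this movement through the troponin and tropomyosin proteins on the thin filament, and giant elastic proteins tie the filaments to the Z-disc at the sarcomere's ends. Imaginal discs are epithelial sacs that form adult structures, and in the wing and leg discs they carry undifferentiated myoblasts, marked by the transcription factor twi, that later build adult muscle.

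Muscle genes were detected in every library of both tissues, and 9 of the 10 were lower in eye disc than in antennal disc, beside 49.5% of all tested genes. The difference passed the test for 2 of these, the myosin heavy chain gene Mhc and the projectin gene bt, and 1 member, the titin-like gene sls, went the other way and was higher in eye disc. The other 7 were not called, and for each of them the highest eye disc library exceeded the lowest by a fold of 3.02 to 4.19. Of all genes tested, 26.4% were called, 14.6% as higher in eye disc and 11.7% as lower there (quasi-likelihood test of edgeR, p adjusted after Benjamini-Hochberg, BH, under 0.05). The share of members called, 30%, was near that background. The median log2 fold change of the members, eye disc over antennal disc, was -0.89, and that of all tested genes was 0.0046. In libraries of pooled disc portions, fewer cells of a type and less RNA per cell cannot be told apart.

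The libraries differed in RNA of marker genes of tissues other than muscle, for reasons that were not tested. Eye disc replicate 2 stood apart: 5 salivary gland genes, which encode glue proteins, had a sum of 507, 84922 and 1317 CPM (counts scaled to a common library total, with TMM factors) in eye disc replicates 1, 2 and 3, against 412, 1109 and 886 CPM in antennal disc replicates 1, 2 and 3. Results are therefore also given without that library. Of the tissue markers, all 5 listed for eye disc (ey, eya, so, gl and Optix) were higher in eye disc, and all 4 for antennal disc (Dll, ss, disco and hth) were higher in antennal disc.

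Thick filaments are built from myosin, with the heavy chain as motor and 1 essential and 1 regulatory light chain on its neck. Mhc (FBgn0264695, 2L, 16766566 to 16788766 in dm6), the only gene of muscle myosin heavy chain in the fly, had 4.84, 16.3 and 14.1 CPM in eye disc replicates 1, 2 and 3, and 46.9, 47.3 and 49.8 CPM in antennal disc replicates 1, 2 and 3. Every eye disc library lay far under every antennal disc library, and the antennal disc libraries were nearly equal. Mhc averaged 11.7 ± 6.07 CPM in eye disc, against 48.0 ± 1.57 CPM in antennal disc (SD, n = 3 each), a log2 fold change of -2.04 ± 0.44 (SE; edgeR quasi-likelihood, BH-adjusted p = 0.0217). Its direction held in each of the 6 fits that left out 1 library. Removal of eye disc replicate 3 ended its call (-2.22, edgeR adjusted p = 0.067), and so did removal of antennal disc replicate 1, 2 or 3 (-2.07, -2.06 and -2.02, edgeR adjusted p = 0.0606, 0.0659 and 0.0712). It held without eye disc replicate 1 (-1.67, edgeR adjusted p = 0.000525) and without eye disc replicate 2 (-2.33, edgeR adjusted p = 0.0251).

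The light chains did not separate the tissues in this way. Mlc2 (FBgn0002773, 3R, 30171438 to 30174551), the regulatory light chain, had 37.2, 145 and 93.2 CPM in eye disc replicates 1, 2 and 3, and 131, 202 and 152 CPM in antennal disc replicates 1, 2 and 3. Eye disc replicate 2 reached into the antennal disc range and eye disc replicate 1 lay far below the rest. The log2 fold change of Mlc2 was -0.82 ± 0.51 (edgeR quasi-likelihood, BH-adjusted p = 0.290). Mlc1 (FBgn0002772, 3R, 27657078 to 27660177), the essential light chain, had 8.12, 32.5 and 18.4 CPM in eye disc, against 26.3, 37.3 and 27.9 CPM in antennal disc, in the order of replicates 1 to 3. Its ranges overlapped as well, at a log2 fold change of -0.64 ± 0.49 (edgeR adjusted p = 0.387). Neither light chain was called in any of the 6 fits that left out 1 library.

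Prm (FBgn0003149, 3L, 8732858 to 8745310) encodes paramyosin, the core protein of invertebrate thick filaments. It had 7.54, 22.8 and 14.7 CPM in eye disc replicates 1, 2 and 3, and 34.6, 39.4 and 32.8 CPM in antennal disc replicates 1, 2 and 3. The ranges did not overlap, but the eye disc libraries spread over a fold of 3.02 between highest and lowest. The log2 fold change was -1.25 ± 0.39 (edgeR quasi-likelihood, BH-adjusted p = 0.0642). Prm was called as lower in eye disc without eye disc replicate 1 (-0.94, edgeR adjusted p = 0.0297) and without eye disc replicate 2 (-1.67, edgeR adjusted p = 0.0166), and also by DESeq2 with all libraries (-1.25, adjusted p = 0.00305).

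**Figure D1:**
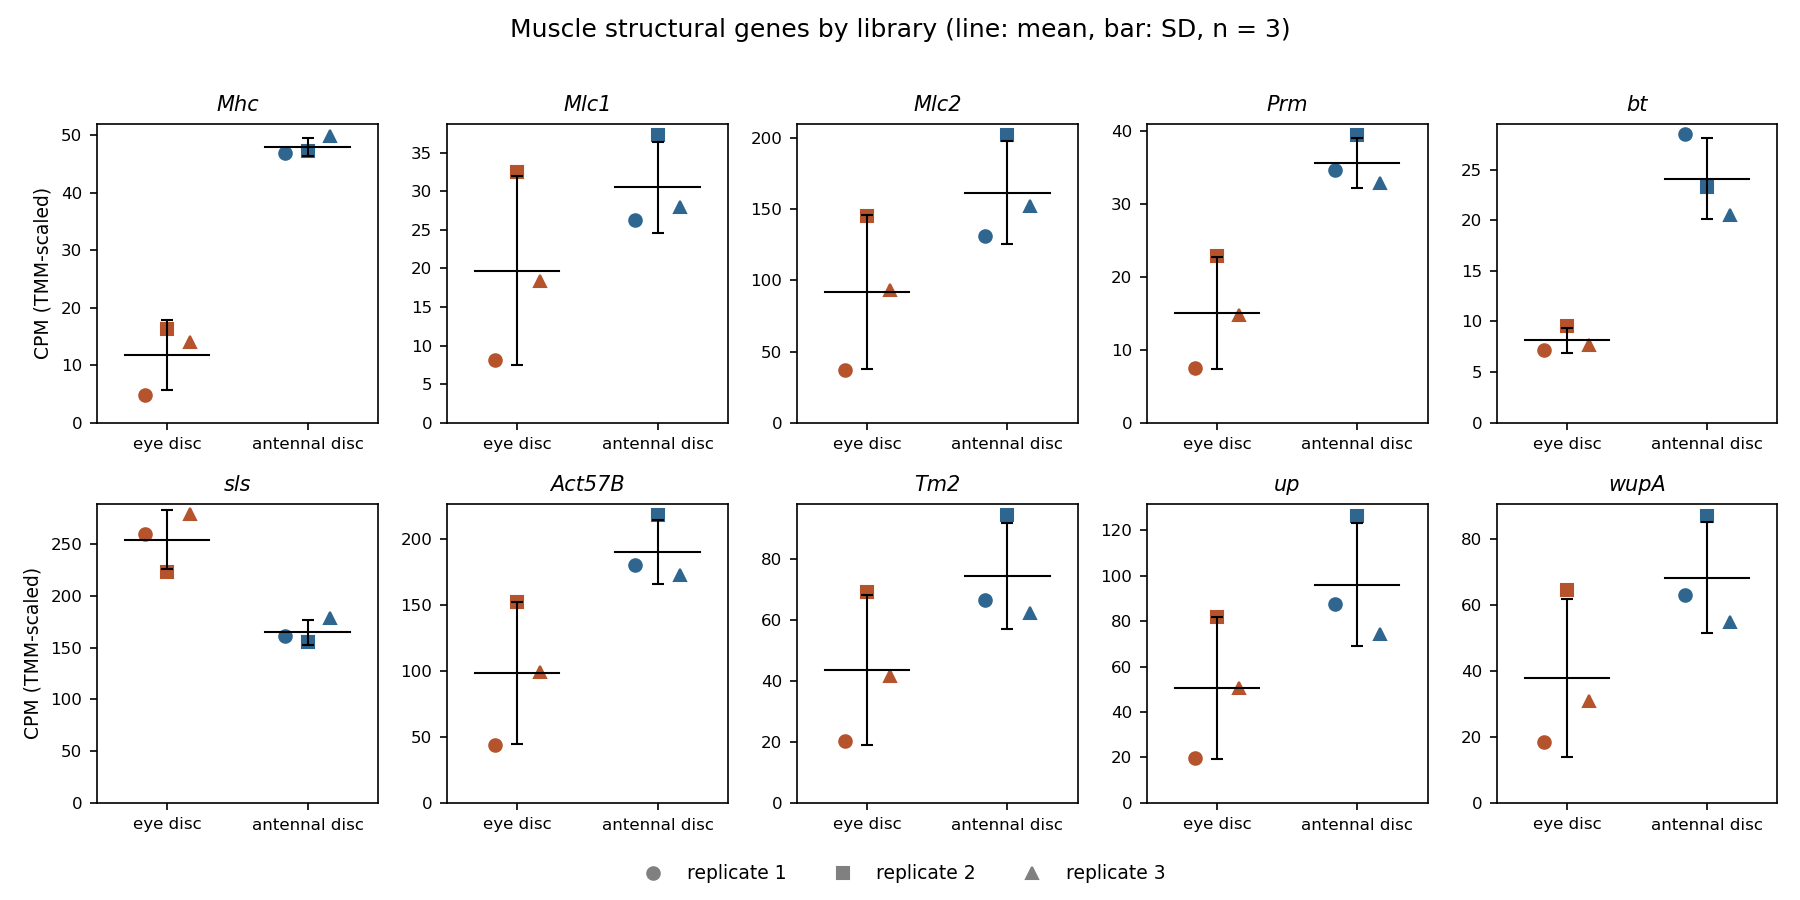
TMM-scaled CPM of the 10 muscle structural genes in each library, with eye disc on the left and antennal disc on the right of each panel (points: replicates 1 to 3, horizontal line: mean, bar: SD). The eye disc libraries of Mhc, bt, Prm and Act57B all lie under the antennal disc libraries, those of sls all lie above, and eye disc replicate 1 is lowest of the eye disc libraries for every gene but sls.

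The giant proteins of the elastic filament moved in opposite directions. bt (FBgn0005666, 4, 724400 to 776474) encodes projectin, a kinase that links thick filaments to the Z-disc. It had 7.20, 9.51 and 7.69 CPM in eye disc replicates 1, 2 and 3, and 28.5, 23.3 and 20.5 CPM in antennal disc replicates 1, 2 and 3. All eye disc libraries lay close together and well under all antennal disc libraries. bt averaged 8.14 ± 1.22 CPM in eye disc, against 24.1 ± 4.03 CPM in antennal disc (SD, n = 3 each), a log2 fold change of -1.57 ± 0.17 (edgeR quasi-likelihood, BH-adjusted p = 0.00108). This call was kept in each of the 6 fits that left out 1 library, at log2 fold changes between -1.69 and -1.44.

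sls (FBgn0086906, 3L, 2039681 to 2115611) encodes Sallimus, a titin-like spring of the I-band, and its short form kettin. It had 259.9, 223 and 279 CPM in eye disc replicates 1, 2 and 3, and 161, 155 and 179 CPM in antennal disc replicates 1, 2 and 3. The ranges did not overlap, and eye disc was higher: 254 ± 28.5 CPM against 165 ± 12.2 CPM (SD, n = 3 each), a log2 fold change of 0.62 ± 0.10 (edgeR quasi-likelihood, BH-adjusted p = 0.00554). The call was kept in each of the 6 fits that left out 1 library, at 0.54 to 0.71. An antisense RNA gene covers 1.92% of the sls span and had at most 2.66 CPM before TMM scaling in a library.

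Thin filament members were lower in eye disc on average, with wide spread. Act57B (FBgn0000044, 2R, 20944021 to 20946431), an actin of larval muscle, had 44.1, 152 and 99.3 CPM in eye disc replicates 1, 2 and 3, and 181, 218 and 173 CPM in antennal disc replicates 1, 2 and 3. No eye disc library reached the antennal disc range. The log2 fold change was -0.96 ± 0.44 (edgeR quasi-likelihood, BH-adjusted p = 0.176). The deposited counts of Act57B, bt and sls were fractional in all 6 libraries and those of the other members whole (tolerance 1e-06). An estimate is fractional where reads match more than 1 gene, and the genes concerned were not looked for, so these 3 levels are less certain.

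The regulatory proteins of the thin filament behaved alike. up (FBgn0004169, X, 13593474 to 13602578), troponin T, which anchors the troponin complex to tropomyosin, had 19.5, 82.0 and 50.6 CPM in eye disc, against 87.7, 126 and 74.2 CPM in antennal disc. wupA (FBgn0283471, X, 18105568 to 18116922), the inhibitory subunit troponin I, had 18.3, 64.5 and 30.8 CPM in eye disc, against 63.1, 87.0 and 54.7 CPM in antennal disc. Tm2 (FBgn0004117, 3R, 15310193 to 15315197), a muscle tropomyosin that lies along actin, had 20.2, 69.0 and 41.4 CPM in eye disc, against 66.4, 94.2 and 62.2 CPM in antennal disc, each gene in the order of replicates 1 to 3. In all 3 genes only eye disc replicate 2 reached into the antennal disc range. The log2 fold changes were -0.93 ± 0.54 for up, -0.86 ± 0.49 for wupA and -0.78 ± 0.46 for Tm2 (edgeR quasi-likelihood, BH-adjusted p = 0.266, 0.251 and 0.267). Without eye disc replicate 2, wupA was called as lower in eye disc (-1.47, edgeR adjusted p = 0.0296), and up (-1.45, adjusted p = 0.106) and Tm2 (-1.26, adjusted p = 0.0715) were not.

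**Figure D2:**
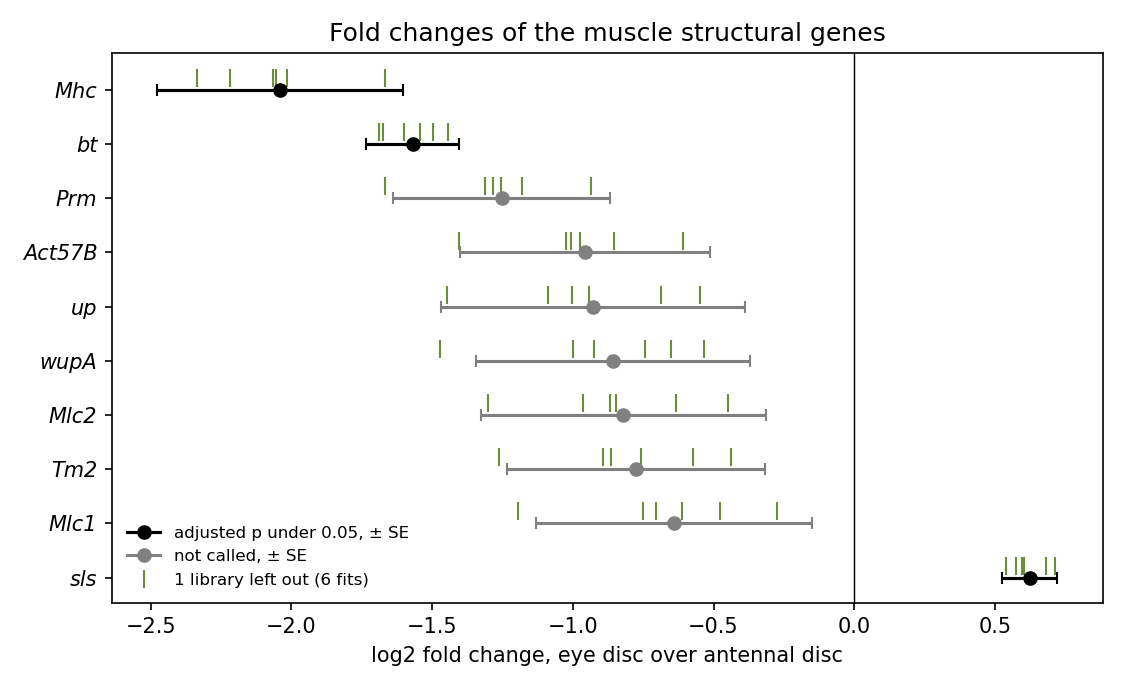
Log2 fold changes of the 10 genes, eye disc over antennal disc, with SE bars (black: adjusted p under 0.05, grey: not called) and, as green ticks, the values with 1 library left out. Every tick of Mhc, bt and the 7 genes not called lies left of 0 and every tick of sls lies right of it, and the ticks of the 7 spread widest on the removal of eye disc replicate 1 or 2.

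The count of called members changed with the test and when 1 library was left out. Leaving out a library also lowers the number of replicates, and these 2 effects were not separated. DESeq2 on the same counts, without the filter on low counts, called 3 members lower in eye disc (2 with edgeR). It called 1523 of all genes lower there (1161 with edgeR). With limma-trend on log2(TPM + 1), below, unit and test were changed together. Leaving out 1 library gave between 1 and 4 members called as lower in eye disc. There were 4 (Mhc, bt, Prm and wupA) on removal of eye disc replicate 2, 3 (Mhc, bt and Prm) on removal of eye disc replicate 1, and 1 (bt) on removal of eye disc replicate 3 or any antennal disc replicate. Of all tested genes, 1117 of 10098, 976 of 10113 and 925 of 10044 were called lower there without eye disc replicate 1, 2 and 3. Without antennal disc replicate 1, 2 and 3 the numbers were 911 of 10144, 596 of 10129 and 520 of 10146. sls was higher in eye disc in all 6. The median log2 fold change of the members was -0.54 without eye disc replicate 1 and -1.42 without eye disc replicate 2. On log2(TPM + 1), where TPM is the deposited abundance per gene span, limma-trend called 0 members higher in eye disc and 9 lower there. There the median log2 fold change over all genes lay at -0.18, and it called 858 genes of the whole table higher in eye disc (1449 with edgeR) and 344 higher in antennal disc (1161 with edgeR). In that fit sls was at 0.35 (adjusted p = 0.542, limma). limma-trend draws the variance of each gene toward that of genes at a similar level, and the TPM had no TMM scaling. Its SE was 0.297 for sls and 0.294 for Mlc2, where edgeR gave 0.0986 and 0.506. Calls gained or lost with limma-trend, here and below, therefore do not follow each gene's own replicate spread. Log2(TPM + 1) understates the change of low genes, and on it Mhc was at -1.60 and bt at -0.66.

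Ranges of the 3 eye disc and 3 antennal disc libraries did not overlap for 5 of the 10 members, beside 45.6% of all tested genes. In 4 of the 5 eye disc was the lower, beside 22.2% of all tested genes, and in 1 the higher, beside 23.4%. Compared library by library of equal replicate number, 9 members were lower in eye disc at each of the 3 numbers. The share of all tested genes that did so was not counted, so the 9 have no background beside them. Most members also varied together, so the 9 are not separate observations. For Mlc2 the log2 ratios, eye disc over antennal disc, were -1.82, -0.48 and -0.71 at numbers 1, 2 and 3. For Mhc they were -3.28, -1.54 and -1.82. In both genes the difference was largest at number 1.

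Within a tissue most members varied together from library to library. Eye disc replicate 1 was the lowest eye disc library for 9 of the 10 members, where it was lowest for 27.8% of all tested genes. Antennal disc replicate 2 was the highest antennal disc library for 7 members, against 30.4% of all tested genes. The exceptions in antennal disc were bt, highest in replicate 1, and Mhc and sls, highest in replicate 3. Summed over the 9 members other than sls, the level was 167, 594 and 370.2 CPM in eye disc replicates 1, 2 and 3, and 665, 875 and 647 CPM in antennal disc replicates 1, 2 and 3. The highest eye disc library exceeded the lowest by a fold of 4.19 for up, 4.01 for Mlc1 and 3.90 for Mlc2, but by only 1.32 for bt and 1.25 for sls. In antennal disc the same quantity was between 1.06 for Mhc and 1.70 for up. Among all tested genes the median SD of log2 CPM was 0.14 in eye disc and 0.11 in antennal disc, and the members' medians were 0.91 and 0.25.

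Each member was also expressed as a percentage of Mlc2 in the same library. Mlc1 stood at 21.8%, 22.4% and 19.7% of Mlc2 in eye disc replicates 1, 2 and 3, and at 20.04%, 18.4% and 18.3% in antennal disc replicates 1, 2 and 3. up lay between 52.5% and 56.4% in eye disc and between 48.8% and 67.0% in antennal disc. Tm2 lay between 44.5% and 54.1% in eye disc and between 40.9% and 50.7% in antennal disc, wupA between 33.0% and 49.2% in eye disc and between 35.9% and 48.2% in antennal disc, and Act57B between 105% and 118% in eye disc and between 108% and 138% in antennal disc. For these 5 genes the tissues overlapped, and Mlc2 itself ranged from 37.2 to 202 CPM over the libraries. Such overlap was common. Of the 9900 tested genes other than Mlc2, only 0.606% lay lower and 33.1% higher in every eye disc library than in every antennal disc library. Overlap alone therefore does not set these 5 genes apart.

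Mhc and sls were the members whose proportion to Mlc2 differed without overlap. Mhc was at 13.0%, 11.2% and 15.1% of Mlc2 in eye disc replicates 1, 2 and 3, and at 35.8%, 23.4% and 32.7% in antennal disc replicates 1, 2 and 3. Of the 9900 tested genes other than Mlc2, 0.606% had a proportion to Mlc2 that was lower in every eye disc library than in every antennal disc library. Mlc2 itself averaged 91.9 CPM in eye disc, against 162 CPM in antennal disc. An unchanged gene therefore has a higher mean proportion in eye disc, and such shares depend on the choice of Mlc2. sls was at 698%, 154% and 299.6% in eye disc and at 123%, 76.8% and 117% in antennal disc, where 33.1% of those 9900 genes lay higher in every eye disc library. Prm (15.7% to 20.3% in eye disc, 19.5% to 26.4% in antennal disc) and bt (6.55% to 19.3% in eye disc, 11.5% to 21.7% in antennal disc) overlapped. No test was made of these proportions.

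**Figure D3:**
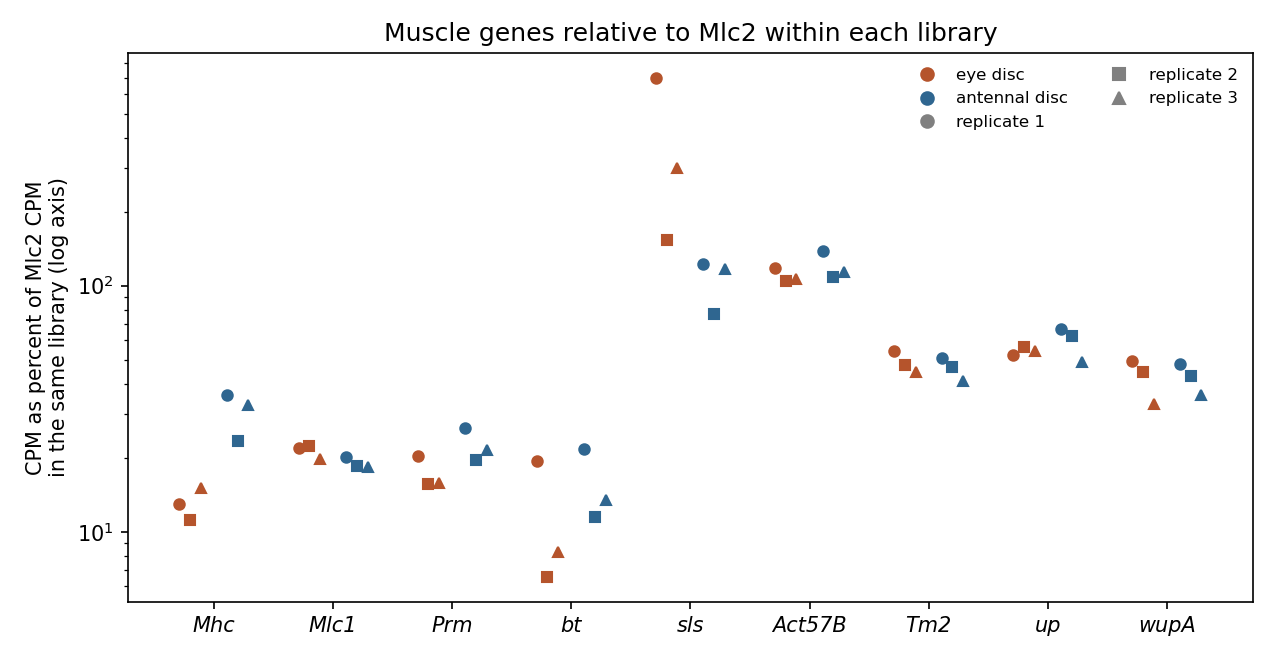
Level of each member as a percentage of the Mlc2 level in the same library (log axis), eye disc left and antennal disc right for each gene. Mlc1, Act57B, Tm2, up and wupA overlap between the tissues, wupA between 33.0% and 49.2% over the 6 libraries, Mhc lies between 11.2% and 15.1% in eye disc and between 23.4% and 35.8% in antennal disc, and sls lies between 154% and 698% in eye disc and between 76.8% and 123% in antennal disc.

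Levels of different genes were compared per length, as CPM per kilobase of the longest annotated transcript. In eye disc, Act57B averaged 57.1 ± 31.3, Mlc2 40.2 ± 23.6, up 29.9 ± 18.4, wupA 28.1 ± 17.7, Tm2 22.0 ± 12.4 and Mlc1 13.9 ± 8.66 CPM per kilobase (SD, n = 3), and each of these overlapped its neighbour in the order. sls followed at 4.50 ± 0.504, Prm at 4.10 ± 2.08, Mhc at 1.60 ± 0.827 and bt at 0.294 ± 0.0441 CPM per kilobase, where sls lay under every Mlc1 value, bt under every Mhc value, and the others overlapped. In antennal disc the first 6 kept the same order, with Act57B at 110.5 ± 14.2, Mlc2 at 70.8 ± 16.0 and Mlc1 at 21.6 ± 4.20 CPM per kilobase. There Prm was at 9.72 ± 0.931, Mhc at 6.538 ± 0.214, sls at 2.92 ± 0.216 and bt at 0.871 ± 0.146 CPM per kilobase, with no overlap between neighbours from Mlc1 down. sls stood above Mhc in every eye disc library and below it in every antennal disc library. The order was the same with the length of all exons in place of the longest transcript.

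The other genes of the contractile apparatus were mostly not called. Of 10 thin filament genes tested, 8 were not called, tmod was higher in eye disc and sals in antennal disc, at a median log2 fold change of -0.65. sals, needed for actin filaments of full length, was at 0.471 ± 0.0785 CPM in eye disc, against 1.45 ± 0.323 CPM in antennal disc, a log2 fold change of -1.60 ± 0.37 (edgeR quasi-likelihood, BH-adjusted p = 0.0222). Of the 6 removals of a single library, only that of eye disc replicate 1 kept its call (edgeR adjusted p = 0.0476). An opposite-strand gene, CG17230, covers 98.3% of the sals span and shares 297 exonic bases with sals. Before TMM scaling CG17230 had 59.4 to 68.3 CPM over the libraries, far above sals. Whether its reads entered the sals counts was not tested. tmod, tropomodulin, which caps the slow end of actin filaments in many cell types, was at 462 ± 19.5 CPM in eye disc, against 250.0 ± 16.4 CPM in antennal disc (log2 fold change 0.89 ± 0.07, edgeR adjusted p = 0.000317). With limma-trend on log2(TPM + 1) neither was called (tmod 0.63, sals -0.21, limma adjusted p = 0.186 and 0.566).

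Not called among thin filament genes, but at similar values to the members, were the actin Act87E (-0.94 ± 0.39), the calponin-like Mp20 (-0.84 ± 0.40) and the calcium sensor troponin C gene TpnC73F (-0.63 ± 0.40; edgeR adjusted p = 0.131, 0.181 and 0.299). Mp20 was called as lower in eye disc without eye disc replicate 2 (-1.30, edgeR adjusted p = 0.0332), and also by DESeq2 with all libraries (-0.85, adjusted p = 0.0475). With the replicate number as a block, TpnC73F was called as lower in eye disc (-0.65, edgeR adjusted p = 0.029). limma-trend called all 3 (-1.07, -1.12 and -0.85, limma adjusted p = 0.00393, 0.00186 and 0.0372). The remaining thin filament genes not called by edgeR were divided. TpnC25D was at -0.73 ± 0.66 and TpnC47D at -0.67 ± 0.48. Tm1 was at only -0.08 ± 0.06, Lasp at -0.08 ± 0.05 and Act88F at -0.05 ± 0.69. TpnC4 and the flight muscle gene fln had no count in any library, and another gene covers the whole TpnC4 span and 61.9% of that of fln. The adult muscle actin Act79B had 0.152, 0.0639 and 1.42 CPM in eye disc replicates 1, 2 and 3, and at most 0.134 CPM in antennal disc, and was not tested. The flight muscle actin Act88F had 0.064 to 0.612 CPM in eye disc, against 0.307 to 0.434 CPM in antennal disc.

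Of 3 further thick filament and M-line genes tested, none was called (median -0.19; edgeR unadjusted p between 0.108 and 0.607). Mf, myofilin, had 16.1, 63.2 and 30.9 CPM in eye disc replicates 1, 2 and 3, and 62.0, 88.8 and 65.0 CPM in antennal disc replicates 1, 2 and 3, the pattern of the light chains (-0.98 ± 0.51, edgeR adjusted p = 0.216), and it was called as lower in eye disc without eye disc replicate 2 (-1.61, edgeR adjusted p = 0.0285) and by limma-trend (-1.24, adjusted p = 0.000498). Strn-Mlck, a kinase related to myosin light chain kinases, had 1 library far above the others, with 36.1, 128 and 29.7 CPM in eye disc, against 51.8, 40.1 and 47.3 CPM in antennal disc. Its log2 fold change was 0.47 ± 0.61 (edgeR adjusted p = 0.609), and -0.49 without eye disc replicate 2 (edgeR adjusted p = 0.04996).

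Of 6 Z-disc and attachment genes tested, 5 were not called and 1 was higher in antennal disc (median -0.52). Zasp52, a PDZ and LIM domain protein that holds alpha-actinin at the Z-disc, was at 137 ± 24.9 CPM in eye disc, against 195 ± 3.23 CPM in antennal disc (-0.51 ± 0.12, edgeR quasi-likelihood, BH-adjusted p = 0.0274). An opposite-strand gene covers 42.3% of its span. With 1 library removed, its call survived only the removal of eye disc replicate 2 among the 6 (-0.66, edgeR adjusted p = 0.00107), and limma-trend did not call it (-0.64, limma adjusted p = 0.182). tn, a TRIM protein that maintains sarcomeres, was at 11.9 ± 4.50 CPM in eye disc, against 27.6 ± 9.39 CPM in antennal disc (-1.21 ± 0.36, edgeR adjusted p = 0.0551). It was called as lower in eye disc on removal of eye disc replicate 2 (-1.56, edgeR adjusted p = 0.0246) or antennal disc replicate 3 (-1.46, edgeR adjusted p = 0.0408), and when replicate numbers formed a block (-1.21, edgeR adjusted p = 0.0119). With all libraries, tn was also called by DESeq2 (-1.22, adjusted p = 0.00302) and by the edgeR fit that was not robust (-1.21, adjusted p = 0.0497). The nuclear anchor Msp300 (-0.40 ± 0.23, edgeR adjusted p = 0.257) was called with the block only (-0.40, adjusted p = 0.00356), and Zasp66 (-0.68 ± 0.41, adjusted p = 0.274) only without eye disc replicate 2 (-1.18, adjusted p = 0.041) among the edgeR fits. limma-trend called tn (-0.91) and Zasp66 (-0.86; limma adjusted p = 0.00459 and 0.0343). The alpha-actinin gene Actn (-0.08 ± 0.06) and Mlp60A (-0.52 ± 0.44) were not called by edgeR with all libraries.

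Of 9 tested genes of calcium handling, energy buffering and the dystrophin complex, 6 were not called, 2 rose in eye disc and 1 fell there (median -0.0027). The calcium pump SERCA was at 339 ± 19.4 CPM in eye disc, against 434 ± 32.2 CPM in antennal disc (-0.36 ± 0.08, edgeR quasi-likelihood, BH-adjusted p = 0.0165). Its call was lost on removal of antennal disc replicate 3 (-0.37, edgeR adjusted p = 0.0573) and with limma-trend (-0.56, limma adjusted p = 0.263). Its micropeptide inhibitor gene SclA had 4.19, 18.6 and 8.42 CPM in eye disc replicates 1, 2 and 3, and 20.8, 31.8 and 15.9 CPM in antennal disc replicates 1, 2 and 3 (-1.15 ± 0.58, edgeR adjusted p = 0.202). SclB has the same annotated span and the same values, so the pair cannot be told apart. SclA was called as lower in eye disc without eye disc replicate 2 (-1.85, edgeR adjusted p = 0.0382) and by limma-trend (-1.35, adjusted p = 9.97e-05). The sarcoglycan genes Scgalpha and Scgbeta, whose proteins sit in the dystrophin complex of the membrane, were higher in eye disc, at 4.98 ± 1.56 against 0.316 ± 0.133 CPM in antennal disc (3.97 ± 0.48) and at 8.39 ± 4.22 against 0.411 ± 0.177 CPM in antennal disc (4.34 ± 0.52; edgeR adjusted p = 0.00191 for both). With limma-trend they were at 2.22 and 3.11. The remaining genes of this list that edgeR did not call went in both directions. Argk1 was at -0.0026 ± 0.072, Dys at 0.15 ± 0.07 and RyR at -0.64 ± 0.51. Ca-alpha1D was at 1.57 ± 0.59, with no overlap of the ranges.

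Genes of myoblasts, myogenesis and myoblast fusion were split. Of 12 tested, 4 were not called, 5 rose in eye disc and 3 fell there (median 0.28). The myoblast transcription factor twi had 1.94, 2.75 and 1.19 CPM in eye disc replicates 1, 2 and 3, and 25.5, 22.4 and 24.1 CPM in antennal disc replicates 1, 2 and 3. Every antennal disc library was far above every eye disc library (log2 fold change -3.63 ± 0.30, edgeR quasi-likelihood, BH-adjusted p = 0.000483), and an opposite-strand gene covers 50.6% of the twi span. Him, which holds myoblasts undifferentiated, was at 0.204 ± 0.0223 CPM in eye disc, against 1.53 ± 0.642 CPM in antennal disc (-2.87 ± 0.47, edgeR adjusted p = 0.00649). With limma-trend twi was at -0.83 and Him at -1.54. Mef2, the main activator of muscle structural genes, was not called, at 30.9, 59.4 and 42.5 CPM in eye disc replicates 1, 2 and 3, and 39.3, 52.4 and 52.3 CPM in antennal disc replicates 1, 2 and 3 (-0.12 ± 0.25, edgeR adjusted p = 0.761). The RNA-binding protein gene how was the remaining gene of this list that was lower in eye disc (-0.42 ± 0.07, edgeR adjusted p = 0.00569), and limma-trend did not call it (-0.55, adjusted p = 0.281).

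The 5 higher in eye disc were mspo, kirre, sns, zfh1 and stumps. kirre and sns encode adhesion receptors that pair founder cells with fusing myoblasts and also act between cells of the eye and other tissues. kirre was at 44.2 ± 2.09 CPM in eye disc, against 12.7 ± 1.38 CPM in antennal disc (1.80 ± 0.10, edgeR quasi-likelihood, BH-adjusted p = 8.6e-05), and sns at 26.0 ± 7.33 against 11.5 ± 1.10 CPM in antennal disc (1.17 ± 0.21, edgeR adjusted p = 0.00944). The kirre span overlaps 23 other genes. One, rst, lies wholly within it on the opposite strand and shares 0 exonic bases with kirre. Before TMM scaling, rst had 304, 245 and 310 CPM in eye disc, against 75.3, 76.5 and 75.8 CPM in antennal disc. Whether reads of rst entered the kirre counts was not tested. mspo, a secreted spondin, was at 23.8 ± 10.1 against 2.17 ± 0.435 CPM in antennal disc (3.45 ± 0.35, edgeR adjusted p = 0.00101). The zinc finger gene zfh1 (0.73 ± 0.16) and the FGF receptor adaptor stumps (0.68 ± 0.18) had edgeR adjusted p of 0.0182 and 0.039. Of the 6 removals of a single library, only that of antennal disc replicate 1 kept the call of stumps (0.86), and that of zfh1 was lost without antennal disc replicate 2 (0.71, edgeR adjusted p = 0.0746) or 3 (0.63, adjusted p = 0.0718). With limma-trend, mspo kept its call (0.93) and the other 4 lost theirs, at 0.19 for kirre, 0.39 for sns, 0.42 for zfh1 and 0.38 for stumps (limma adjusted p = 0.596, 0.295, 0.454 and 0.504). In the same libraries all 6 glia markers and 5 of 6 neuron markers were higher in eye disc, with neuron markers summing to 538 to 937 CPM in eye disc, against 81.6 to 92.4 CPM in antennal disc and none of these markers at 0. Their part in the eye disc levels of these genes was not tested.

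Of the 3 tendon cell genes, the cells to which muscles attach, Tsp (thrombospondin) was at 31.9 ± 5.60 CPM in eye disc, against 136 ± 6.58 CPM in antennal disc (-2.10 ± 0.14, edgeR quasi-likelihood, BH-adjusted p = 0.000194). Lrt was higher in eye disc, at 30.3 ± 2.64 CPM against 19.7 ± 1.99 CPM in antennal disc (0.62 ± 0.11, edgeR adjusted p = 0.00746), but not with limma-trend (0.32, limma adjusted p = 0.567). sr, the master regulator of tendon fate, had 6.64 to 7.92 CPM in eye disc, against 4.41 to 7.92 CPM in antennal disc and was not called.

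Of the cytoplasmic counterparts of the members, none of 4 tested was called (median 0.07; edgeR unadjusted p between 0.407 and 0.700). The non-muscle myosin gene zip was listed too, but it was not matched to an identifier and has no value here. The cytoplasmic actin Act5C was at 8123 ± 613 CPM in eye disc, against 7934 ± 673 CPM in antennal disc (0.03 ± 0.08). The non-muscle light chains sqh and Mlc-c, related to Mlc2 and Mlc1, were at 325 ± 75.5 against 303 ± 11.0 CPM in antennal disc (0.10 ± 0.16) and at 307 ± 60.9 against 282 ± 9.57 CPM in antennal disc (0.12 ± 0.14). All 3 turned to below 0 under some alternatives: Act5C was at -0.02 without eye disc replicate 1, and sqh and Mlc-c were at -0.09 and -0.04 without eye disc replicate 2.

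**Figure D4:**
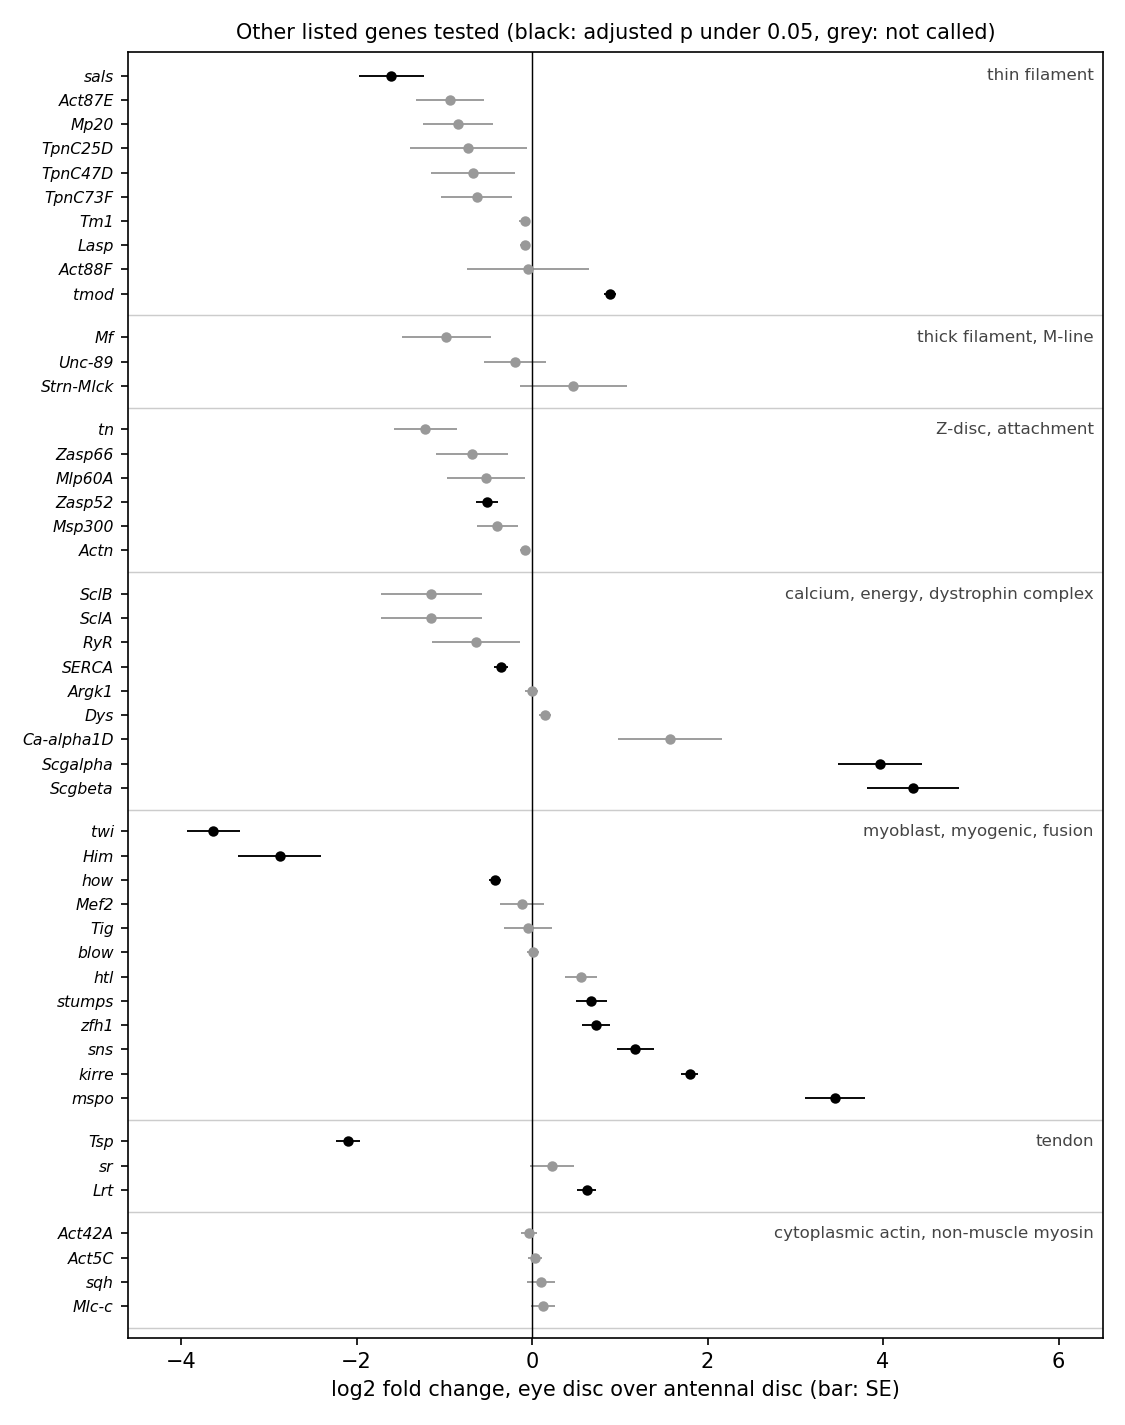
Log2 fold changes with SE bars of the other listed genes that were tested, eye disc over antennal disc, grouped by role (black: adjusted p under 0.05, grey: not called). Most thin filament, thick filament and Z-disc genes lie left of 0 without being called, the myoblast genes twi and Him lie far left, and the sarcoglycan genes and mspo lie far right.

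Markers of other larval tissues varied between the same libraries. The 5 fat body genes summed to 4850, 23797 and 8193 CPM in eye disc replicates 1, 2 and 3, against 5057, 4685 and 3233 CPM in antennal disc replicates 1, 2 and 3, with none of them at 0. The 3 tracheal genes summed to 24.9, 63.7 and 54.4 CPM in eye disc, against 30.9, 26.4 and 22.5 CPM in antennal disc. In eye disc the sums of these lists and of the salivary gland genes were lowest in replicate 1 and highest in replicate 2. The sum of the 9 muscle genes had the same order. Single genes departed from it in eye disc. The fat body gene Fbp1 was lowest in replicate 3 (3137, 8217 and 2181 CPM in replicates 1, 2 and 3). The tracheal gene vvl was highest there (5.87, 17.9 and 23.9 CPM). In antennal disc, the sums of the muscle genes and the salivary gland genes were both highest in replicate 2. Those of the fat body and tracheal genes were highest in replicate 1. None of these 13 fat body, tracheal and salivary gland genes was called between the tissues (edgeR unadjusted p between 0.0286 and 0.442), and their part in the muscle gene values was not tested. Of 6 hemocyte markers, 4 were called as higher in eye disc. They summed to 514, 561 and 694 CPM in eye disc replicates 1, 2 and 3, against 268, 343 and 369 CPM in antennal disc replicates 1, 2 and 3, with none at 0, and their part was not tested either.

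**Figure D5:**
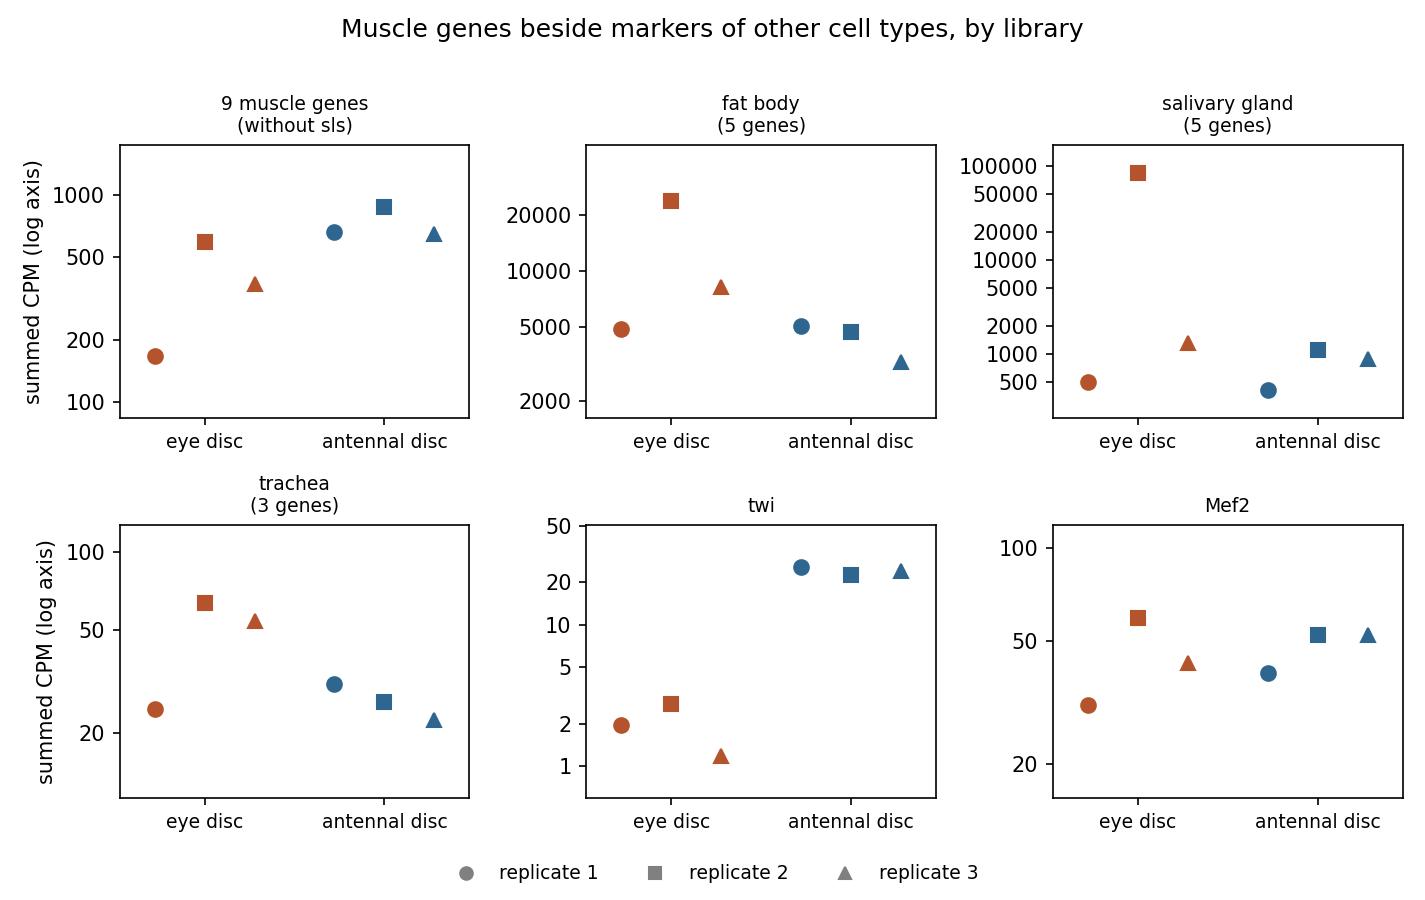
Summed CPM (log axis) of the 9 muscle structural genes other than sls, of fat body, salivary gland and tracheal markers, and CPM of twi and Mef2, in each library (eye disc left, antennal disc right). Eye disc replicate 1 is lowest and eye disc replicate 2 highest of the eye disc libraries in every panel but that of twi, which is between 1.19 and 2.75 CPM in eye disc and between 22.4 and 25.5 CPM in antennal disc.

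Outside the muscle lists, the 10 genes whose log2 CPM followed the members' mean most closely over the 6 libraries had Pearson correlations between 0.977 and 0.992. These values are a description over 6 libraries, which differ in tissue and depth. The first, CG33521, had 1.79, 5.81 and 3.94 CPM in eye disc replicates 1, 2 and 3, and 7.23, 9.49 and 5.90 CPM in antennal disc replicates 1, 2 and 3. It was followed by GluRIID, a subunit of the glutamate receptor at the neuromuscular junction, with 0.114, 1.21 and 0.421 CPM in eye disc, against 1.36, 2.27 and 1.11 CPM in antennal disc. The others were asRNA:CR43257, CG6023, Ldaf1, CG5597, CG31103, CG8852, CG14615 and aspr. None of the 10 was called (edgeR quasi-likelihood, BH-adjusted p between 0.100 and 0.491). They were picked for likeness to the members, most of which were not called, so this is no separate result. The correlation does not weigh the size of a change, and their log2 fold changes ran from -1.49 for GluRIID to -0.13 for Ldaf1. Among the members themselves, Act57B followed the mean of the other 9 most closely (0.999), Mhc stood at 0.916, bt at 0.737 and sls at -0.843.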

How the data were processed

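RNA-seq libraries of 3 eye disc and 3 antennal disc pools were made with a stranded mRNA kit, per the labels' protocols. The authors deposited estimated counts and TPM per gene for each library. The submitters' processing notes name FastQC, kallisto and bedtools with build dm6. No source used here gives versions or a strand setting, so reads of overlapping genes on opposite strands may not be told apart. The listed length equalled the whole gene span, introns included, for 99.3% of matched genes, so the deposited TPM are per span. Other deposited interval files were not used.

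Estimated counts were rounded to whole numbers and tested with edgeR 4.0.16 (filterByExpr, TMM, robust quasi-likelihood fit) in R 4.3.3, eye disc over antennal disc, with Benjamini-Hochberg adjustment over 9901 genes and a threshold of 0.05. The SE is the log2 fold change over the square root of F. The steps were tested on simulated data with 200 changed genes. Names and coordinates came from Ensembl release 115, which matched 17622 of 17753 identifiers and 106 of 107 listed genes. A count of 3 equals 0.103 to 0.171 CPM, for counting error only. The labels call the replicates biological and do not say whether numbers pair them, so p-values measure the spread between these samples. Same-numbered libraries deviated together (Pearson r across 9901 genes of 0.415, 0.308 and 0.242 at numbers 1, 2 and 3), and a fit with the number as a block is given where it changes a call. The alternatives were RLE factors, DESeq2 1.42.0, other filters, limma-trend (limma 3.58.1) on log2(TPM + 1), a fit that was not robust, scaling without muscle genes, and leaving out each library. Scaling without salivary gland and fat body genes was added after the data were seen. All members were named, then listed genes that passed the test or had at least 3 counts in a library, then the 10 genes most like the members by Pearson correlation. The members and lists were chosen with earlier results of these data known.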

Additional observations from a re-analysis of the deposited data

How the results depend on the processing

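Of 150 values of member fold changes under the alternatives, 0 changed sign. These values are refits of the same 6 libraries for genes that mostly varied together, so they are not separate tests. The share of sign changes over all tested genes was not counted. limma-trend on log2(TPM + 1) called 0 members higher in eye disc and 9 higher in antennal disc, 858 of all genes higher in eye disc against 344 in antennal disc, and 3 and 13 of the other muscle lists. Leaving out 1 library gave 1 to 4 members higher in antennal disc, 919 to 1462 of all genes higher in eye disc and 520 to 1117 higher in antennal disc. In the other muscle lists it gave 7 to 11 genes higher in eye disc and 5 to 13 higher in antennal disc. The lowest counts of all genes came without antennal disc replicate 2 (919 higher in eye disc) and without antennal disc replicate 3 (520 higher in antennal disc), and the 13 came without eye disc replicate 2. Leaving out 1 library moved the log2 fold change of Strn-Mlck between -0.49 and 0.81, of Mef2 between -0.38 and 0.077, of Act5C between -0.023 and 0.093, of sqh between -0.087 and 0.23 and of Mlc-c between -0.040 and 0.23. limma-trend also reversed Strn-Mlck (-0.017), Act5C (-0.18), sqh (-0.13) and Mlc-c (-0.11). With the replicate number as a block, 1 member rose in eye disc and 2 fell there, no member's call changed (Mhc -2.18, edgeR adjusted p = 0.0413), and 1614 of all genes rose in eye disc and 1397 fell there. The cause of these shifts was not tested. Depth limits the genes near 3 counts, such as Act88F and Him.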
